A study of Mus musculus with 21 samples.

Results

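The genes described here were those of cytochrome P450 families 1 to 4, the microsomal monooxygenases that oxidize drugs, steroids and fatty acids, in kidneys of mice fed adenine with or without iodomethylcholine (IMC). They were chosen by name and read number: a symbol made of Cyp, a family digit from 1 to 4, a single subfamily letter and a number, and 10 or more reads summed over 17 mice. Of 75 such symbols in the table of gene names, 46 had reads, 3 of these had fewer than 10, and 43 genes were kept out of 21657 genes listed. Family 1 held 2 of these genes, family 2 held 26, family 3 held 1 and family 4 held 14. The genes just inside the read limit were Cyp2b19 with 10 reads, Cyp2c38 with 15 and Cyp4x1 with 16. Those just outside were Cyp2d11 with 9 reads, Cyp2d34 with 7 and Cyp2b10 with 6. The classical P450 targets of the xenobiotic receptors CAR and PXR were thus almost without reads, since Cyp2b10 stayed below the limit and Cyp3a11, with 10 reads, had no entry in the table of names. No reads were listed for Cyp1a2.

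All mice were female apoE knockouts on a C57BL/6J background, 18 weeks old, that had been on their diet for 14 weeks from the age of 4 weeks. The diets were a control diet (Con, n = 5 mice), an adenine diet, which injures the kidney tubules (Ade, n = 6), and the adenine diet with IMC, an inhibitor of the bacterial enzyme that makes trimethylamine from choline (Ade + IMC, n = 6). Every group carried the knockout, so no comparison here bears on it, and 4 mice on Con + IMC were not analysed here. No label says that the mice of a group came from separate litters or cages, so p-values measure only the spread between these mice.

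Libraries held 7716126 to 11680809 reads in Con, 5445057 to 7673499 in Ade and 5728589 to 8305968 in Ade + IMC. Levels are given in CPM, read counts scaled to library size by TMM over the 17 mice, and on this scale 3 reads corresponded to at most 0.432 CPM in a Con mouse, 0.510 in an Ade mouse and 0.489 in an Ade + IMC mouse, which covers counting error only. Proximal tubule markers were abundant in every kidney, at a summed 24798 to 34375 CPM in Con, 5017 to 17490 in Ade and 8279 to 16213 in Ade + IMC. All 13 proximal tubule markers tested were lower in Ade and in Ade + IMC than in Con, while 9 of 9 leukocyte and 8 of 8 fibroblast markers were higher in both. Over all genes tested, 32.2% were lower and 35.1% higher in Ade, and 32.3% lower and 30.9% higher in Ade + IMC. Fewer cells of a type and less RNA per cell cannot be told apart in such whole-kidney libraries. Mouse numbers beginning with 2, 3 and 4 occurred in each group, and the meaning of that digit is not given in the sources used here.

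Cytochrome P450 enzymes hold a heme group through the cysteine of a conserved loop and take electrons from NADPH through a separate reductase. In the kidney they are best known from the proximal tubule, where Cyp2c and Cyp2j enzymes convert arachidonic acid to epoxides and Cyp4a enzymes hydroxylate fatty acids at the end of the chain. Many of the genes arose by tandem duplication and lie next to close copies of themselves, so that short reads can match more than 1 gene.

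The heme loop shows how alike the genes are within a subfamily. The 30 coding bases around the heme cysteine were found in 42 of the 43 genes by the signature of the loop, and Cyp2s1 did not match it. They were read 5′ to 3′ on the coding strand from the GENCODE M21 transcripts of GRCm38, with the cysteine codon in capitals, and are printed for genes that fell, genes that rose and some of their relatives:
Cyp2a4: ttttccattggaaaacggtatTGTttcgga
Cyp2a5: ttttccattggaaaacggtatTGTttcgga
Cyp2d26: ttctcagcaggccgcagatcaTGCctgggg
Cyp2d12: ttttcagcaggccgcagatcaTGCctgggg
Cyp2j5: ttctcaatgggaaaaagagctTGTcttgga
Cyp2j13: ttttcaatgggaaagcgagctTGCctcgga
Cyp4a10: ttctcaggaggagccaggaacTGCattggg
Cyp4a31: ttctcaggaggagccaggaacTGCattggg
Cyp4a14: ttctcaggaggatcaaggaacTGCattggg
Cyp4b1: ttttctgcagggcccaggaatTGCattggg
Cyp4f18: ttctcggctgggcccaggaacTGCatagga
Cyp1b1: ttctcagtgggcaaacggaggTGCatcggt
Cyp3a13: tttgggagtggaccaaggaacTGCattggc
Cyp2a4 and Cyp2a5 were identical over these bases, as were Cyp4a10, Cyp4a31 and Cyp4a32, whereas Cyp4a14 differed from Cyp4a10 at 2 of the 30 bases and Cyp2d12 from Cyp2d26 at 1. In Cyp1b1 the site lay within exon 3 of 3, at chr17:79710309-79710338 on the minus strand (GRCm38). In 39 of the 42 genes the site spans the junction of a pair of exons. For example, that of Cyp2j5 lay at chr4:96629627-96630720 on the minus strand, ending exon 8 of 9 and continuing after the intron.

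The share of all 50-base stretches of a gene's exons that also occur in another gene gives the room for misassigned reads, since the reads were 50 bases long. It was 38.8% for Cyp2a4 (36.1% with Cyp2a5) and 37.0% for Cyp2a5. It was 29.8% for Cyp4a10, 20.6% for Cyp4a31 and 43.8% for Cyp4a32, mostly among themselves, 21.8% for Cyp2d9 and 54.3% for Cyp2c69. Values of these 7 genes are therefore uncertain as to which copy they belong to. The share was 17.4% for Cyp4f16, mostly with Cyp4f37. By contrast, it was 0.174% for Cyp2j5, 0.148% for Cyp2j13, 0.235% for Cyp4a14 and 0 for Cyp1b1, Cyp2c23, Cyp2r1 and Cyp3a13.

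Promoter windows from 250 bases before to 50 bases after the RefSeq start of transcription (GRCm38.p6) were matched for 33 of the 43 genes. The aryl hydrocarbon receptor (AhR), a ligand-activated factor that is best known for switching on Cyp1a1 and Cyp1b1, binds a core of the letters GCGTG. The 250 bases before the start of these AhR targets and of Cyp2j13, the gene of the Cyp2j group that moved against its neighbours, are printed 5′ to 3′ on the strand of the gene, with matches on either strand to GCGTG, or to TATAAA, the letters of the TATA box, in capitals. A match on the other strand reads CACGC:
Cyp1a1: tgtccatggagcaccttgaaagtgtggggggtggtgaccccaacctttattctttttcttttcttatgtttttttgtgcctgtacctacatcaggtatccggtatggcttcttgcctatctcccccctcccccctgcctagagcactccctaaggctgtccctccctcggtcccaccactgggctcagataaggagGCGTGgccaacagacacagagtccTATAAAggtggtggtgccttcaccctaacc
Cyp1b1: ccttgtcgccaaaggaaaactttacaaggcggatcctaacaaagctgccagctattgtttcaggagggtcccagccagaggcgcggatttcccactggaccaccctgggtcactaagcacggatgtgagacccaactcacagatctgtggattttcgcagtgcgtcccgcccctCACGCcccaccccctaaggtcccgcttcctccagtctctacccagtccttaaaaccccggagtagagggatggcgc
Cyp2j13: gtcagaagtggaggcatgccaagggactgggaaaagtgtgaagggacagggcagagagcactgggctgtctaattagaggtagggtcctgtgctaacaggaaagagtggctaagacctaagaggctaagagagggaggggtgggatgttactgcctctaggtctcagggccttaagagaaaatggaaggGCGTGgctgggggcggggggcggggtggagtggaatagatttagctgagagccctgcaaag
The Cyp1a1 stretch, chr9:57697363-57697612 on the plus strand, lies in the first intron of a longer Cyp1a1 transcript. Those of Cyp1b1, chr17:79715062-79715311, and Cyp2j13, chr4:96077548-96077797, both on the minus strand, lie upstream of the annotated genes and in no other gene. Over the whole windows, which include the 50 bases after the start, GCGTG was present for 9 of the 33 genes, in Cyp2r1 after the start, and 32.6% of all 32544 promoters hold it. Of these 9 genes, Cyp2j9, a neighbour of Cyp2j13, Cyp2r1 and Cyp4f14 were lower in Ade than in Con. Cyp1b1, Cyp2j13, Cyp4f16 and Cyp4v3 were higher, and Cyp1a1 and Cyp4f39 were not tested. The TATA letters were present for 11 of the 33 genes against 13.6% of all promoters, AGGTCA, the core bound by many nuclear receptors, for 8 against 16.2% (in Cyp2a4 and Cyp2a5 after the start, as for the TATA letters of Cyp2c69), and GTTAAT, the core bound by HNF1, for 6 against 7.13%. The longer HNF4 core CAAAGTCCA was found for 1 gene against 0.48% of promoters. A match is a string of letters and was not tested as a site.

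Adenine feeding was followed by a lower summed level of the P450 genes. The total over the 43 genes was 4347 ± 737 CPM in Con (SD, n = 5), 1738 ± 667 in Ade (n = 6) and 1974 ± 358 in Ade + IMC (n = 6). It ranged from 3410 to 5288 CPM in Con, from 1033 to 2860 in Ade and from 1490 to 2436 in Ade + IMC. No Ade or Ade + IMC mouse reached the lowest Con mouse, and the Ade and Ade + IMC mice overlapped. Among mice whose number begins with 2, the mean total was 3655 CPM in Con (2 mice), 1092 in Ade (2 mice) and 1801 in Ade + IMC (2 mice). Among those beginning with 4 it was 4804 CPM (1 mouse), 2220 (3 mice) and 2158 (2 mice), so that Ade + IMC stood above Ade in the former and close to it in the latter. Among those beginning with 3 it was 4811 CPM (2 mice), 1587 (1 mouse) and 1963 (2 mice).

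**Figure D1:**
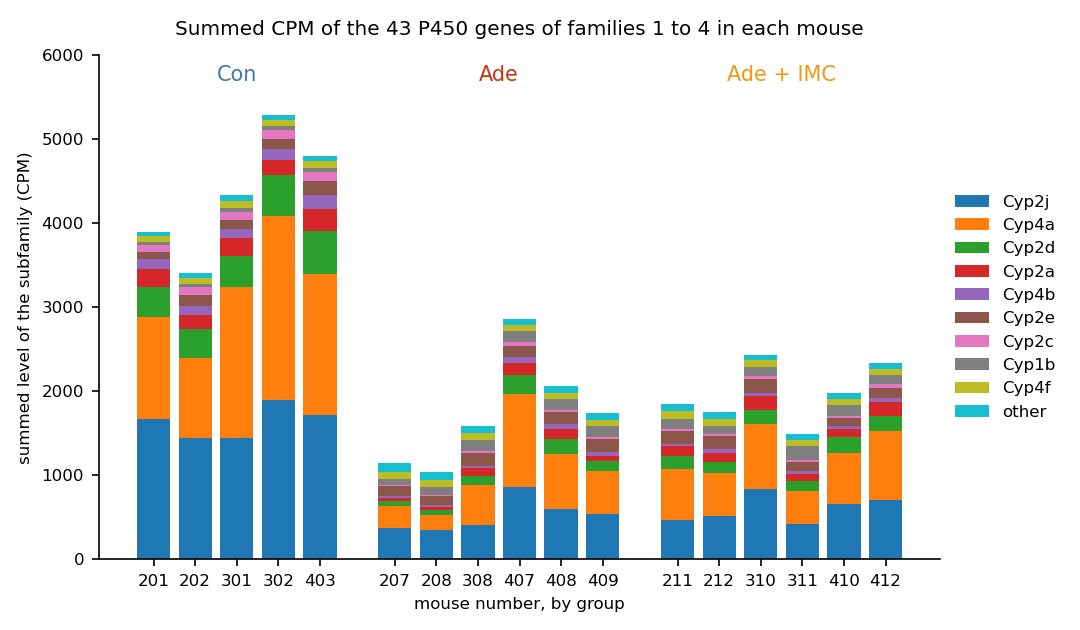
Stacked bars give the summed CPM of each P450 subfamily in each of the 17 mice (x axis, mouse number by group), on a linear axis from 0. The Cyp2j and Cyp4a blocks make up most of every bar, and Ade and Ade + IMC totals lie between 1033 and 2860 CPM, below the lowest Con total of 3410.

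The fall was carried by the abundant subfamilies. The Cyp2j genes summed to 1632 CPM in Con, 518 in Ade and 598 in Ade + IMC, and the Cyp4a genes to 1565, 530 and 622 CPM. Cyp2d genes summed to 420, 127 and 154 CPM and Cyp2c genes to 95.3, 22.6 and 29.7. The Cyp4f genes as a sum stayed at 74.3, 80.0 and 79.0 CPM, with members that moved apart. As a share of the total, Cyp2e1 went from 2.84% in Con to 8.71% in Ade and 6.84% in Ade + IMC, and Cyp1b1 from 1.07% to 6.83% and 6.50%.

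Levels can be compared between genes only per length of their exons. On this scale Cyp2j5 was the highest P450 gene of the Con kidney, at 544 ± 72.2 CPM per kb, followed by Cyp4a14 at 272 ± 93.6. Next came Cyp2d26 at 191 ± 41.1, Cyp4a31 at 191 ± 48.7 and Cyp4a10 at 179 ± 61.8 CPM per kb, which differed by less than their SDs over the 5 mice. Cyp2j11 was at 139 ± 11.6 CPM per kb. Cyp2a4 (102 ± 23.7), Cyp4b1 (57.3 ± 12.1), Cyp2e1 (56.5 ± 14.8) and Cyp2c23 (43.8 ± 4.42) followed, of which Cyp4b1 and Cyp2e1 again differed by less than their SDs. In Ade the first place still belonged to Cyp2j5, at 162 ± 68.1 CPM per kb, and Cyp2e1 stood at 64.2 ± 8.88, within the range of Cyp4a14 at 86.4 ± 66.1, Cyp4a10 at 69.0 ± 43.5 and Cyp4a31 at 63.5 ± 27.9.

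To find which genes differed between Ade and Con, edgeR's quasi-likelihood test was fitted over all 14612 genes with enough reads, with Benjamini-Hochberg adjusted p below 0.1 taken as called. Of the 43 P450 genes, 14 had too few reads to be tested, 18 were called lower, 7 were called higher and 4 were not called. Over all genes tested, 32.2% were called lower and 35.1% higher. Tested genes with a median under 10 reads in Con or Ade had to differ to pass the read filter. They were Cyp2d12, Cyp2r1 and Cyp4f14, which were called lower, and Cyp2j13 and Cyp3a13, which were called higher. Of the other 24, 15 (62.5%) were called lower and 5 (20.8%) higher. The median log2 fold change was −0.48 for these 24, against 0.02 for all genes tested. Of the 18 lower genes, 13 fell by more than 1 on the log2 scale, among them Cyp2d12, Cyp2r1 and Cyp4f14, which had to differ to be tested. By subfamily, the lower genes were 5 of 6 tested in Cyp2j, 3 of 4 in Cyp2d, 3 of 3 in Cyp4a, 2 of 5 in Cyp4f, 1 of 2 in Cyp2a and the single tested gene in Cyp2c, Cyp2r, Cyp2u and Cyp4b. These subfamily counts include Cyp2d12, Cyp4f14 and Cyp2r1 as lower genes and Cyp2j13 as a tested gene, all of which had to differ to be tested.

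**Figure D2:**
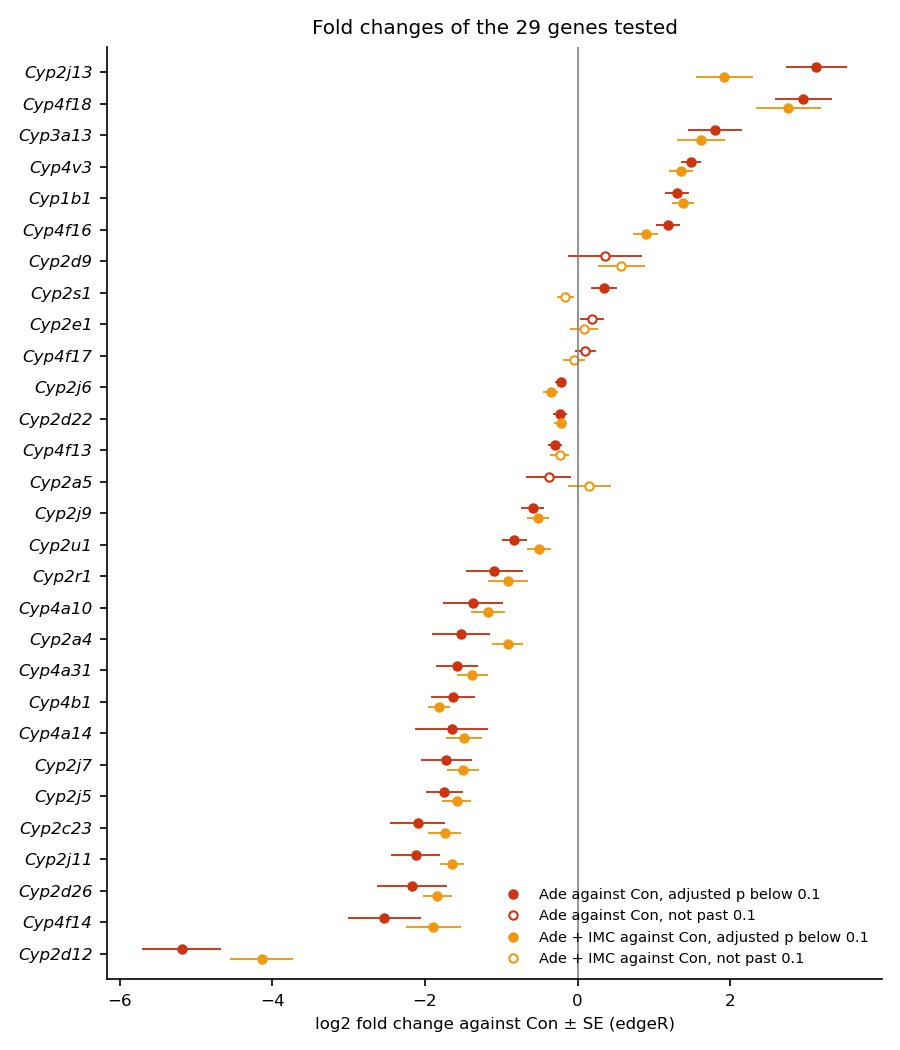
Points give the log2 fold change against Con (x axis) of each of the 29 genes tested (y axis, ordered by the value in Ade) and bars its SE, in red for Ade (n = 6) and orange for Ade + IMC (n = 6) against the same 5 Con mice, with filled points for adjusted p below 0.1. The lowest values belong to Cyp2d12, at −5.19 in Ade and −4.14 in Ade + IMC, and the highest in Ade to Cyp2j13 at 3.13.

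Cyp2j5 and Cyp2c23, both epoxygenases of arachidonic acid, were called lower. Cyp2j5, a proximal tubule epoxygenase and the most abundant P450 gene here, measured 1291, 1114, 1114, 1518 and 1336 CPM in the Con mice. In Ade its level ran from 229 through a median of 345 to 659 CPM, and in Ade + IMC from 297 through 426 to 639 CPM. Every mouse on adenine lay below every Con mouse. The log2 fold change was −1.74 ± 0.24 in Ade (SE, adjusted p = 3.55e-05) and −1.58 ± 0.19 in Ade + IMC (adjusted p = 1.73e-05), both by edgeR. Cyp2c23, an epoxygenase of the Cyp2c group, measured 85.1, 87.3, 91.3, 103 and 107 CPM in Con. Its level was 6.89 to 44.2 CPM in Ade (median 21) and 16.2 to 47.9 CPM in Ade + IMC (median 25.6), again with no overlap with Con. Its log2 fold change was −2.10 ± 0.36 in Ade (adjusted p = 0.000197) and −1.74 ± 0.22 in Ade + IMC (adjusted p = 2.34e-05).

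The 7 Cyp2j genes lie side by side on the minus strand of chromosome 4, between 96027534 and 96664154 (GRCm38). Their values did not move as a block. Beside Cyp2j5, 4 genes of this cluster were called lower, from −0.22 to −2.12 on the log2 scale, and Cyp2j8 had too few reads to be tested. Cyp2j13, at the edge of the cluster, was called higher. It measured 1.39, 0.719, 0.810, 1.42 and 0.261 CPM in Con, 3.91 to 12.9 in Ade (median 7.72) and 1.76 to 5.37 in Ade + IMC (median 3.58). All mice on adenine were above all Con mice, which held a median of only 6 reads. Its log2 fold change against Con was 3.13 ± 0.40 in Ade (adjusted p = 1.89e-05) and 1.92 ± 0.37 in Ade + IMC (adjusted p = 0.000684).

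All 3 tested fatty acid hydroxylases of the Cyp4a group were called lower in Ade, and Cyp4a32 was not tested. Cyp4a12a and Cyp4a12b, whose names fall outside the rule, were scarce, at 0.811 and 1.04 CPM in Con and 0.760 and 1.75 in Ade, and Cyp4a12b was not called (log2 fold change 0.75, adjusted p = 0.210). Cyp4a10 and Cyp4a14 are classical targets of the fatty acid receptor PPARα. Cyp4a14 measured 526.4, 403, 777, 1015 and 818 CPM in Con, 42.5 to 529 in Ade (median 197) and 159 to 333 in Ade + IMC (median 275). The highest Ade mouse, mouse 407, overlapped Con, and the other 5 Ade mice and all Ade + IMC mice were below every Con mouse. The log2 fold change was −1.65 ± 0.48 in Ade (adjusted p = 0.00845) and −1.48 ± 0.24 in Ade + IMC (adjusted p = 0.000159). Cyp4a10 measured 292, 220, 436, 558 and 385 CPM in Con, 49.96 to 301 in Ade (median 133) and 124 to 228 in Ade + IMC (median 165). Its ranges overlapped Con in both groups. Cyp4a10 had a log2 fold change of −1.37 ± 0.39 in Ade (adjusted p = 0.00759) and −1.18 ± 0.22 in Ade + IMC (adjusted p = 0.000587). Because of its shared sequence, reads of Cyp4a10, Cyp4a31 and Cyp4a32 cannot be fully told apart. Cyp4b1, which oxidizes medium-chain fatty acids and activates some xenobiotics and lies in the same cluster on chromosome 4, measured 118, 110, 108, 136 and 174 CPM in Con. It was at 21.04 to 69.1 CPM in Ade (median 39.8) and 29.98 to 46.9 in Ade + IMC (median 37.5), without overlap with Con. Its log2 fold change was −1.63 ± 0.29 in Ade (adjusted p = 0.000268) and −1.81 ± 0.14 in Ade + IMC (adjusted p = 6.48e-07).

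Among the steroid- and drug-metabolizing groups, Cyp2d12 fell furthest. It held 15.7 to 26.7 CPM in Con (20.8, 23.2, 15.7, 20.99 and 26.7 in the 5 mice), 0 to 2.02 CPM in Ade (median 0.194) and 0.113 to 3.42 in Ade + IMC (median 1.03). It had no reads in 3 of the 6 Ade mice, so its fitted log2 fold change of −5.19 ± 0.51 (adjusted p = 2.10e-06) is no exact size. The value in Ade + IMC was −4.14 ± 0.41 (adjusted p = 4.54e-06). Cyp2d26, the most abundant Cyp2d gene, measured 296, 269, 304, 419 and 424 CPM in Con, 20.9 to 172 in Ade (median 65.4) and 68.4 to 129 in Ade + IMC (median 97.6). Neither group on adenine reached the lowest Con mouse. For Cyp2d26 the log2 fold change was −2.17 ± 0.46 in Ade (adjusted p = 0.00102) and −1.84 ± 0.19 in Ade + IMC (adjusted p = 6.19e-06). Cyp2a4, a testosterone hydroxylase, measured 188, 126, 194, 148 and 232 CPM in Con, 20.3 to 115 in Ade (median 58.4) and 56.7 to 138 in Ade + IMC (median 90.7). Its Ade mice were all below Con, and its Ade + IMC mice overlapped Con. The log2 fold change was −1.53 ± 0.38 in Ade (adjusted p = 0.00340) and −0.92 ± 0.20 in Ade + IMC (adjusted p = 0.00180), for a gene that cannot be fully separated from Cyp2a5.

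Among the scarcer genes, Cyp2u1, a fatty acid hydroxylase, went from 6.25 ± 0.524 CPM in Con (SD, n = 5) to 3.49 ± 0.692 in Ade and 4.54 ± 0.916 in Ade + IMC (n = 6 each). Its log2 fold changes were −0.83 ± 0.16 (adjusted p = 0.000609) and −0.50 ± 0.16 (adjusted p = 0.0172). Its neighbour 4930534D22Rik overlaps it on the opposite strand, and reads of the pair cannot be told apart unless strand was used in counting. Cyp2r1, which hydroxylates the side chain of vitamin D, went from 2.15 ± 0.502 CPM to 0.990 ± 0.648 and 1.18 ± 0.406, with log2 fold changes of −1.09 ± 0.37 (adjusted p = 0.0205) and −0.91 ± 0.26 (adjusted p = 0.00969). Its Ade mice held a median of 7 reads, and the groups overlapped. Cyp4f13 fell from 43.4 ± 6.39 CPM in Con to 35.3 ± 1.82 in Ade, by 0.29 on the log2 scale (SE 0.09, adjusted p = 0.0144). In Ade + IMC it was at 37.9 ± 5.82 CPM (log2 fold change −0.23 ± 0.12, adjusted p = 0.111).

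**Figure D3:**
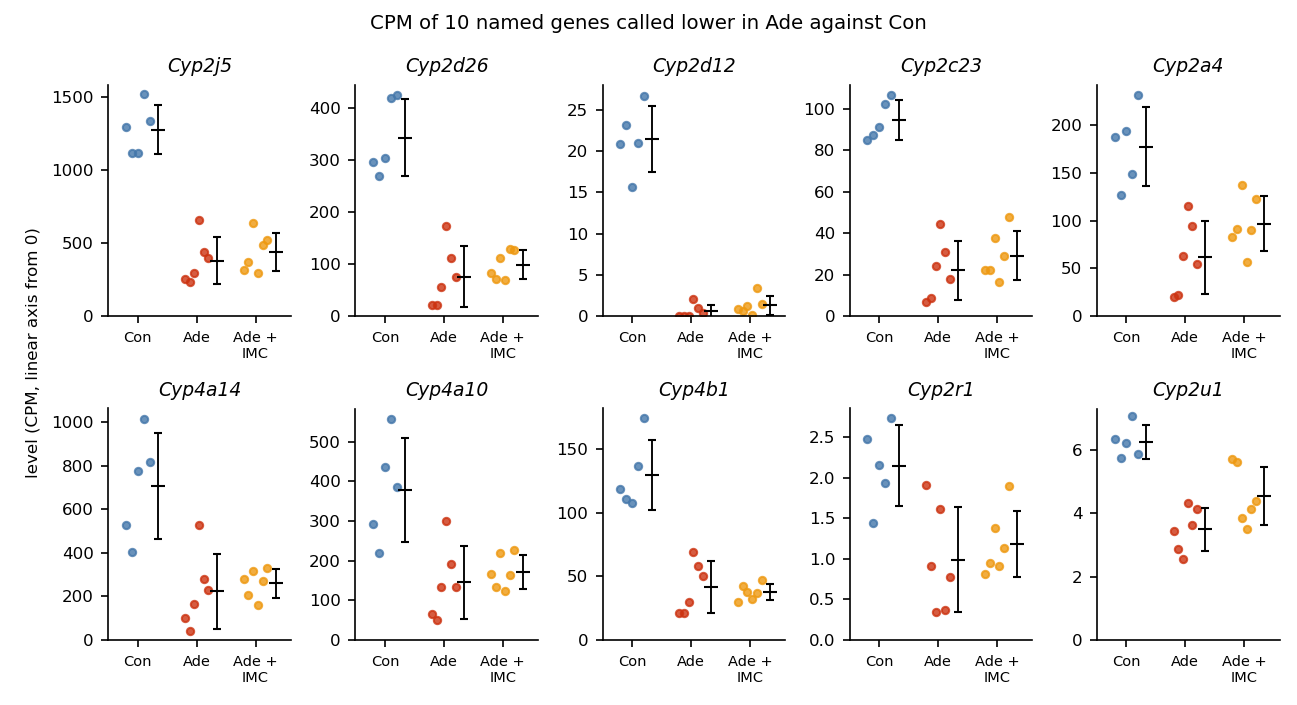
Each panel gives the CPM (y axis, linear from 0) of a named gene called lower in Ade against Con, with a point for each mouse of Con (n = 5), Ade (n = 6) and Ade + IMC (n = 6) and a bar for the mean ± SD. For Cyp2j5, Cyp2d26, Cyp2d12, Cyp2c23, Cyp4b1 and Cyp2u1 no mouse on adenine reaches a Con mouse, and for Cyp2a4, Cyp4a10, Cyp4a14 and Cyp2r1 at least 1 group overlaps Con.

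A smaller set rose. Cyp1b1, which oxidizes estrogens and aromatic hydrocarbons and is found largely outside the liver, measured 41.7, 42.9, 50.4, 48.7 and 44.3 CPM in Con. It was at 70.9 to 135 CPM in Ade (median 123) and 101 to 173 CPM in Ade + IMC (median 112), with every mouse on adenine above Con. Its log2 fold change was 1.31 ± 0.16 in Ade (adjusted p = 1.04e-05) and 1.38 ± 0.14 in Ade + IMC (adjusted p = 6.25e-06). The fibroblast markers moved with it, from a summed 335 to 422 CPM in Con to 2672 to 3332 in Ade and 2022 to 3064 in Ade + IMC, and their part in the result was not tested.

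Cyp4f18, which inactivates leukotriene B4 in neutrophils, measured 0.695, 1.44, 0.405, 2.70 and 1.30 CPM in Con, 5.53 to 15.5 in Ade (median 9.79) and 4.42 to 14.5 in Ade + IMC (median 9.18). The groups on adenine did not overlap Con, and 181 exon bases of the gene are shared with Zfp961 on the opposite strand. Cyp4f18 had a log2 fold change of 2.96 ± 0.37 in Ade (adjusted p = 1.76e-05) and 2.76 ± 0.43 in Ade + IMC (adjusted p = 0.000138). Leukocyte markers rose too, from a summed 179 to 215 CPM in Con to 1054 to 1802 in Ade and 921 to 1883 in Ade + IMC, and their part was not tested. Cyp4v3, a fatty acid hydroxylase and the mouse counterpart of a gene mutated in a human corneoretinal dystrophy, went from 10.7 ± 2.11 CPM to 29.8 ± 3.01 and 28.0 ± 5.26, with log2 fold changes of 1.48 ± 0.13 (adjusted p = 6.08e-07) and 1.35 ± 0.16 (adjusted p = 1.71e-05). Cyp3a13, the single Cyp3a gene kept by the naming rule, went from 0.677 ± 0.353 CPM to 2.38 ± 0.714 and 2.17 ± 0.415, with log2 fold changes of 1.80 ± 0.35 (adjusted p = 0.000599) and 1.62 ± 0.32 (adjusted p = 0.000787). Its Con mice held a median of 6 reads, and mouse 407 overlapped them.

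Cyp2s1, an enzyme of epithelia outside the liver, was called higher in Ade by a narrow margin. It measured 29.98, 33.2, 40.5, 35.5 and 40.9 CPM in Con, 36.3 to 72.7 in Ade (median 39.7) and 25.9 to 37.6 in Ade + IMC (median 34.1). The 3 groups overlapped, and the highest value was that of mouse 207. The log2 fold change in Ade was 0.35 ± 0.17 (adjusted p = 0.0956), and without mouse 207 it was 0.17 ± 0.11 (adjusted p = 0.201). The call was also lost without mouse 208 (adjusted p = 0.142) and without any 1 of the Con mice 201 (0.211), 202 (0.172) or 302 (0.150). In Ade + IMC the log2 fold change against Con was −0.16 ± 0.11 (adjusted p = 0.222).

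**Figure D4:**
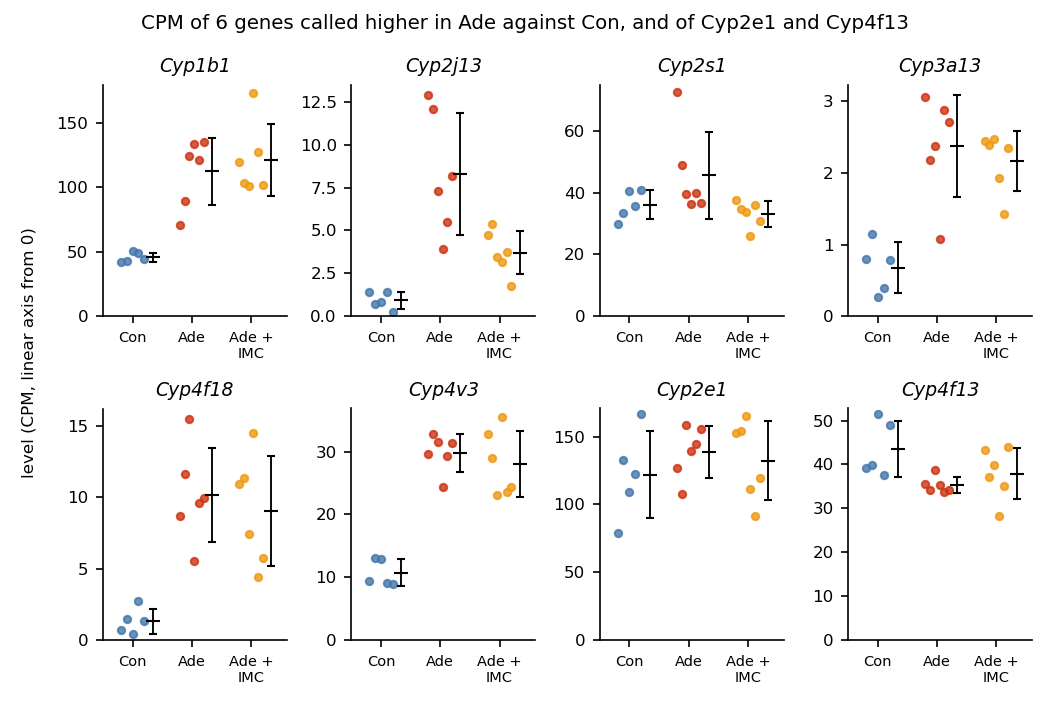
Each panel gives the CPM (y axis, linear from 0) of a named gene in each mouse of Con (n = 5), Ade (n = 6) and Ade + IMC (n = 6), with the mean ± SD. Cyp1b1, Cyp2j13, Cyp4f18 and Cyp4v3 show no overlap between Con and the groups on adenine, Cyp2s1 overlaps between the groups, with an Ade mouse at 72.7 CPM, Cyp2e1 overlaps throughout, and Cyp4f13 is lower in Ade.

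Cyp2e1, which oxidizes ethanol and acetone, was abundant and was not called. It measured 78.9, 133, 109, 122 and 166 CPM in Con, 107 to 159 in Ade (median 142) and 91.1 to 165 in Ade + IMC (median 136). The groups overlapped throughout. Its log2 fold change was 0.19 ± 0.16 in Ade (adjusted p = 0.317) and 0.08 ± 0.18 in Ade + IMC (adjusted p = 0.722), and in Ade it became 0.33 ± 0.15 (adjusted p = 0.0740) without Con mouse 403. The other genes tested and not called in Ade were Cyp2a5, Cyp2d9 and Cyp4f17, named after their values were seen, with log2 fold changes of −0.38 ± 0.29, 0.36 ± 0.48 and 0.10 ± 0.14.

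The 14 genes that were not tested held few reads. Cyp1a1, the best known target of AhR, had 6 to 20 reads per mouse in Con, 2 to 8 in Ade and 1 to 9 in Ade + IMC, which was 1.34 ± 0.770, 0.583 ± 0.291 and 0.738 ± 0.403 CPM. With no filter on low counts its log2 fold change in Ade was −1.20 ± 0.44 (adjusted p = 0.0347). The fitted changes of Cyp1a1 and Cyp1b1 in Ade thus had opposite signs, that of Cyp1a1 on few reads. The part of AhR in either was not tested. Cyp2b9 was at 1.31 ± 0.815, 0.704 ± 0.408 and 0.386 ± 0.419 CPM, and Cyp2t4 at 0.814 ± 0.391, 0.591 ± 0.191 and 1.14 ± 0.167 CPM, with the lowest Ade + IMC mouse above the highest Ade mouse by a margin under 1 read. Cyp4x1 had at most 5 reads in any mouse. Cyp2b19 was listed only in the table that leaves out Con, at 0 to 3 reads.

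Cyp2f2, which activates naphthalene in the airway, was uneven between mice on adenine. It measured 0.794 to 2.48 CPM in Con, 0.510 to 5.61 in Ade (median 1.02) and 0.567 to 6.27 in Ade + IMC (median 2.39). The values above 2.9 CPM were those of Ade mice 207 (5.61) and 208 (2.99) and Ade + IMC mice 211 (3.75), 212 (5.13) and 410 (6.27). These 5 mice also had the highest sums of 5 adipocyte markers, at 151, 27.6, 182, 587 and 82.0 CPM, against 0.414 to 14.8 CPM in the other 12 mice. Whether adjoining fat contributed was not tested.

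The comparison of Ade + IMC with Con shares its 5 Con mice with that of Ade, so its calls are not independent of the latter. Of 29 P450 genes tested, 17 were called lower, against 32.3% of all 14578 genes tested, and 6 were called higher, against 30.9% of all genes. Of the 25 genes with a median of 10 reads or more in both groups, 15 (60.0%) were called lower and 4 (16.0%) higher. The median log2 fold change over these 25 genes was −0.50, against −0.02 for all genes tested. Genes called in Ade and not in Ade + IMC were Cyp4f13 and Cyp2s1. Within each of the 3 first digits of the mouse number, the 17 genes called lower in Ade + IMC had a lower mean than Con, except Cyp2d22 among mice beginning with 2, and the 6 genes called higher had a higher mean. In Ade the 18 genes called lower had a lower mean within each digit, and the 7 called higher had a higher mean, except Cyp2s1 among mice beginning with 4.

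The direct comparison of Ade + IMC with Ade asks whether IMC changed the P450 genes of the adenine kidney. It was made with limma on log2(normalized count + 1) over 14696 genes, so that folds of scarce genes are understated. Of 28 P450 genes tested, 0 were called lower and 0 higher at adjusted p below 0.1, as were 0.00% of all genes in each direction. The smallest adjusted p was 0.706 among them and 0.601 among all genes. At an unadjusted p below 0.05, Cyp2j13 and Cyp2s1 were lower, against 3.35% of all genes, and Cyp2a4 was higher, against 3.37%. Counts by edgeR on reads recovered from the normalized counts were 0 and 0 of all genes, and by DESeq2 16 genes lower and 21 higher.

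For Cyp2j13 the log2 difference of Ade + IMC from Ade was −1.10 ± 0.31 (adjusted p = 0.706, limma). DESeq2 on recovered reads gave −1.17 ± 0.32 (adjusted p = 0.09996). When mice were blocked by the leading digit of their number, limma gave −1.17 ± 0.21 (adjusted p = 0.0602). This blocked fit called 1 P450 gene lower and 0 higher, against 0.408% and 0.497% of all genes. Its unadjusted p was below 0.05 for 3 P450 genes lower, against 6.26% of all genes, and for 5 higher (Cyp2a4, Cyp2c23, Cyp2d26, Cyp2j11 and Cyp2u1), against 7.40% of all genes. In the fit without the block, leaving out single mice moved the difference of Cyp2j13 between −1.29 and −0.91, with adjusted p from 0.157 to 0.996. For Cyp2s1 the difference was −0.43 ± 0.16 (adjusted p = 0.711, limma), and −0.29 ± 0.11 without Ade mouse 207. For Cyp2a4 it was 0.88 ± 0.40 (adjusted p = 0.731, limma), and 0.62 to 1.12 when single mice were left out. Cyp2d12, which fell furthest in Ade, had too few reads for this test. For the next 6 genes by their fall in Ade, the differences were 0.96 ± 0.71 for Cyp4f14, 0.73 ± 0.46 for Cyp2d26, 0.69 ± 0.33 for Cyp2j11, 0.58 ± 0.42 for Cyp2c23, 0.25 ± 0.26 for Cyp2j5 and 0.38 ± 0.37 for Cyp2j7. They were 0.56 ± 0.47 for Cyp4a14 and −0.0026 ± 0.28 for Cyp4b1. Cyp4f14, Cyp2j7 and Cyp2j11 are given here after their values were seen. None of these differences passed the test.

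The falls in the P450 genes stood beside a fall in proximal tubule RNA, and its part in them was not tested. The 13 tested markers had a median log2 fold change of −1.88 in Ade and −1.47 in Ade + IMC, and were led in abundance by Pck1, Lrp2, Slc34a1 and Slc27a2. The total of the 43 P450 genes was 12.5% to 15.6% of the summed marker CPM in Con, 16.4% to 20.6% in Ade and 14.4% to 18.0% in Ade + IMC. The genes were then set against the markers, a step chosen after the values were seen. Per 1000 CPM of these markers, Cyp2j5 stood at 39.6 to 44.9 CPM in Con (median 41.4), 32.0 to 45.7 in Ade (median 39.3) and 27.6 to 40.7 in Ade + IMC (median 35.8). On this relative scale its 3 groups overlapped, as did those of Cyp4a14, Cyp4a10, Cyp2a4 and Cyp4b1. Cyp2d12 remained apart, at 0.565 to 0.934 in Con, 0 to 0.116 in Ade and 0.0137 to 0.268 in Ade + IMC. Cyp2c23 was at 2.73 to 3.52 in Con, 1.22 to 2.69 in Ade and 1.92 to 2.95 in Ade + IMC, where it overlapped Con. Cyp2j11 was at 8.19 to 9.76 in Con, 4.67 to 7.45 in Ade and 5.72 to 7.81 in Ade + IMC. Other genes called lower in Ade turned on this scale, with both groups on adenine wholly above Con. Cyp2u1 was at most 0.232 in Con and at least 0.247 in Ade, and Cyp4f13 at most 1.86 and at least 2.02. Cyp2j6 was at most 2.61 in Con and at least 3.19 in Ade, and Cyp2d22 at most 1.95 and at least 2.61. These genes also lay above Con when Pck1 was left out of the markers. Cyp2e1 was at 2.53 to 5.34 in Con, 7.95 to 22.4 in Ade and 7.13 to 15 in Ade + IMC. The relative scale depends on the markers, since Pck1 made up 24.8% to 31.3% of their sum in Con and 37.5% to 48.7% in Ade. Without Pck1, the P450 total was 16.8% to 21.9% of the marker sum in Con, 26.2% to 39.6% in Ade and 22.7% to 31.0% in Ade + IMC. Cyp2j5 then had medians of 57.6 in Con, 65.8 in Ade and 58.9 in Ade + IMC, so that its order between Con and Ade turned, with ranges that still overlapped (55.6 to 60.5 in Con, 58.9 to 88.2 in Ade). Without Pck1, Cyp2c23 (3.66 to 4.68 in Con, 2.37 to 4.92 in Ade) and Cyp2j11 (11.2 to 12.98 in Con, 8.60 to 12.2 in Ade) overlapped, whereas Cyp2d12 (0.792 to 1.24 in Con, 0 to 0.185 in Ade) and Cyp2e1 (3.40 to 7.17 in Con, 12.7 to 43.6 in Ade) did not, and Cyp2a4 in Ade + IMC then lay above Con (11.2 to 14.5 against 5.92 to 10.02).

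**Figure D5:**
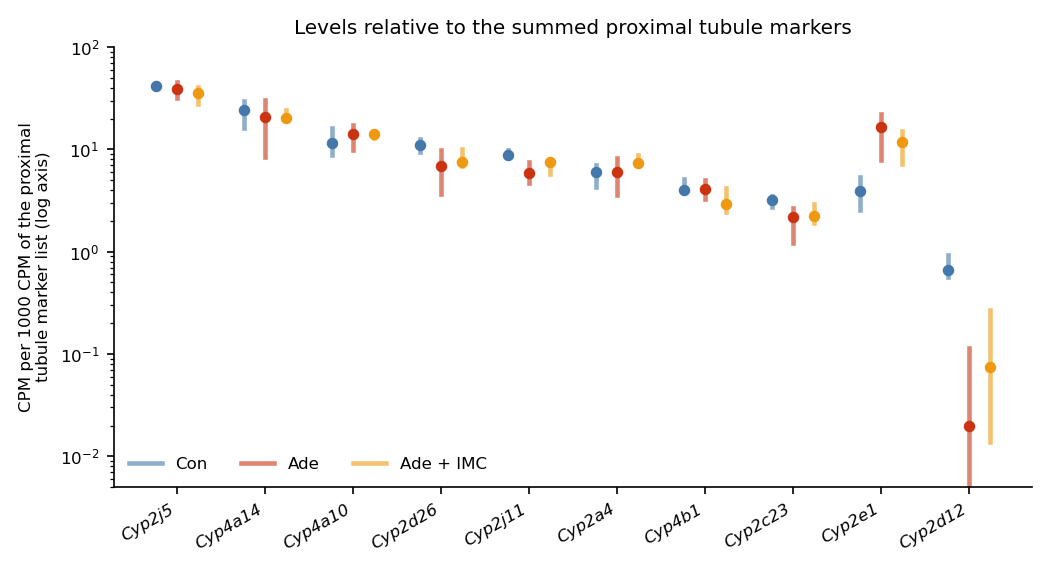
Points give the median and bars the range, over mice of Con (n = 5), Ade (n = 6) and Ade + IMC (n = 6), of the CPM of a gene per 1000 CPM of the summed proximal tubule markers (y axis, log scale; the Ade bar of Cyp2d12 runs down to 0, off the axis). Cyp2j5 has medians of 41.4, 39.3 and 35.8, Cyp2d12 lies lower on adenine, and Cyp2e1 lies higher.

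The enzymes that serve the P450 system were read in the same fits, in which 32.2% of all genes were called lower and 35.1% higher in Ade. Of 7 electron donors and partner proteins tested, the latter being Pgrmc1 and Pgrmc2, 5 were lower and 2 higher in Ade. Por, the reductase that feeds every microsomal P450, went from 397 CPM in Con to 174 in Ade and 208 in Ade + IMC, with log2 fold changes of −1.18 ± 0.16 (adjusted p = 3.54e-05) and −0.97 ± 0.12 (adjusted p = 1.78e-05). Of 8 genes of heme synthesis, 6 were lower and none higher in Ade, in the range of −0.26 to −0.94, and Alas1, its first and rate-limiting enzyme, was not called (−0.25, adjusted p = 0.143). Of 19 tested phase 2 enzymes, which conjugate the products, 13 were lower and 3 higher. Of 9 tested partners in arachidonic acid metabolism, 2 were lower and 3 higher, which is near or below the shares of all genes, and Ephx2, the soluble hydrolase that opens the epoxides, fell by 0.90 on the log2 scale (adjusted p = 0.000120). Of 12 tested P450 genes outside the naming rule, which were 11 genes of other families and Cyp4a12b, 3 were lower and 3 higher, again below those shares. The sum over the 20 such genes with reads was nevertheless lower on adenine. It was 796 to 1166 CPM in Con, 326 to 502 in Ade and 369 to 561 in Ade + IMC.

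Regulators were called in both directions. Of 21 tested, 12 were lower and 4 higher in Ade, where 32.2% of all genes were lower and 35.1% higher. Hnf4a, a master factor of proximal tubule and liver genes, went from 946 CPM in Con to 289 in Ade and 330 in Ade + IMC, and Ppara from 84.8 to 21.3 and 22.3 CPM. Ahr was higher in Ade, at a log2 fold change of 0.67 (adjusted p = 0.00463). Of 14 PPARα targets outside the P450 family, 10 were lower and 2 higher in Ade, and of 4 tested AhR targets outside it, 2 were lower and none higher, a list too short to set against those shares. In Ade + IMC against Ade limma called no gene of any of these lists. It called 0.00% of all genes in each direction, so this says nothing particular about the lists.

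Markers of other cells were read beside the P450 genes. Of 11 markers of other nephron segments, 8 were lower and 0 higher in Ade, against 32.2% and 35.1% of all genes. All 8 injured tubule markers were higher. Their sum was 1501 to 1868 CPM in Con, 5451 to 18108 in Ade and 3130 to 11855 in Ade + IMC. Ade mouse 407, with the lowest sum on Ade, was the highest Ade mouse in 14 of the 18 P450 genes called lower. By contrast, mouse 311, with the lowest sum in Ade + IMC, was the lowest of its group in 14 of these 18 genes. Mouse 310, with the highest sum in Ade + IMC, had the highest P450 total of that group. Of 7 tested hepatocyte markers, 2 were lower, a share near that of all genes, and 4 were higher. Only 1 adrenal cortex marker (lower) and 1 adipocyte marker (higher) could be tested. The part of these cells in the P450 values was not tested.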

How the data were processed

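Kidney RNA of 17 mice was sequenced by the authors as 50 bp single-end Illumina TruSeq libraries. According to the study's methods, reads were aligned with STAR to mm10, whereas the submitters' processing notes list Trimmomatic 0.39, FastQC 0.11.8, Bowtie2 2.2.5, HTSeq 0.9.1 and DESeq2, with no roles. The annotation release and strand setting are not given in the sources used here. The authors deposited raw counts per gene for Con and Ade (21004 genes). For Ade and Ade + IMC they deposited normalized counts, a signal made by dividing the counts by DESeq2 size factors (21287 genes). Both tables list only genes with at least 5 reads in sum. Columns of the authors' own comparisons (fold changes and p-values) were not used, and gene names were taken from that table (20981 names matched to identifiers).

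Every normalized value was a whole number of reads (100% within 0.01 reads) once its step was found, and the recovered reads of the Ade mice differed from the raw counts at 0 genes. Libraries held 5445057 to 11680809 reads. The closest pair of mice of a group had a chi-square of 4.21 per degree of freedom, so each was counted as a separate replicate.

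Ade and Ade + IMC were compared with Con by edgeR 4.0.16 (quasi-likelihood test, TMM, filterByExpr) in R 4.3.3. Ade + IMC was compared with Ade by limma 3.58.1 on log2(normalized count + 1) for genes with a mean of at least 10. P-values were Benjamini-Hochberg adjusted over all genes, with calls below 0.1. In simulated data for Ade against Con (14651 genes), edgeR recovered 97% of log2 changes of 1, and 10.9% of its calls were false. The simulation changed only a small part of the genes, equally up and down. It changed no scarce gene and used the same fixed spread for every gene. These rates therefore need not hold for the reported calls. Named genes were the most abundant gene of each subfamily, its called gene with the largest change in Ade, those with an unadjusted p below 0.05 in Ade + IMC against Ade, and known targets of AhR, CAR, PXR and PPARα. The genes, gene lists and tests were chosen with earlier results of these data known. Alternatives were DESeq2 1.42.0, other scalings, filters, pseudocounts and thresholds, all mice in one fit, a block on the first digit of the mouse number, and leaving out each mouse. Con + IMC was not analysed here.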

Additional observations from a re-analysis of the deposited data

Results flagged for a closer look

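In 5 of 72 sets of values, each set being a gene in 1 group, a single mouse lay far from the others by Dixon's test, where about 4 are expected by chance. For Cyp1b1, Ade + IMC mouse 311 had 173 CPM, against 101 to 128 in the other 5 mice. For Cyp2s1, Ade mouse 207 had 72.7 CPM, against 36.3 to 48.8, and the call in Ade was lost without it. For Cyp4f13, Ade mouse 308 had 38.7 CPM, against 33.7 to 35.6. For Cyp4x1, which was near 0 throughout, Con mouse 202 had 0.144 CPM where the other Con mice had 0, and Ade + IMC mouse 211 had 0.489 CPM, against 0 to 0.138.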

How the results depend on the processing

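Against Con, the number of P450 genes called stayed within 1.5 times of the reported one under every alternative run. Leaving out single mice gave 18 genes lower and 5 to 8 higher in Ade, and 16 to 18 lower and 6 to 7 higher in Ade + IMC. For Ade + IMC against Ade, leaving out single mice gave 0 lower and 0 higher. DESeq2 on recovered reads called 1 gene lower, and an unadjusted p below 0.05 gave 2 lower and 1 higher. With the replicate block on the first digit of the mouse number, 18 genes were lower and 7 higher in Ade, 17 lower and 6 higher in Ade + IMC, and 1 lower (Cyp2j13) and 0 higher in Ade + IMC against Ade. The labels do not say that this digit pairs the mice. The log2 fold change of Cyp2e1 in Ade + IMC, which was not called, ran from −0.042 (without Con mouse 201) to 0.2136 when single mice were left out. The call of Cyp2s1 in Ade was also lost with DESeq2 (adjusted p = 0.148), with edgeR under RLE scaling (0.113) and with edgeR without a filter on low counts (0.125). Depth limits the 14 untested genes, and Cyp2j13, Cyp3a13 and Cyp2r1 rest on medians of 6 or 7 reads in a group. Scaling alternatives moved the median of all genes by at most 0.08 on the log2 scale. Small falls depend on such shifts. With edgeR under upper-quartile scaling, the call of Cyp2d22 was lost in Ade (adjusted p = 0.124) and in Ade + IMC (0.204). The causes were not tested.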
